A study of Mus musculus with 21 samples.

Results

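The genes described here are the Wnt ligands, their Frizzled receptors, the LRP5 and LRP6 co-receptors and the secreted antagonists of the pathway in the left ventricle of the mouse. They were taken by name from the gene table: every symbol of the Wnt, Fzd, Sfrp or Dkk series, with Frzb, Wif1, Lrp5 and Lrp6. This gave 41 of the 24054 genes listed: 19 ligands, 10 receptors, 2 co-receptors and 10 secreted antagonists. The rule uses names and no measured value, though it was set with earlier results of these data known. Of the 41, 25 passed the filter on low counts and were tested, among 14135 genes tested in all: 8 ligands, 9 receptors, both co-receptors and 6 antagonists.

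Wnt proteins are secreted, lipid-modified ligands that bind Frizzled receptors on the cell surface. With LRP5 or LRP6 beside Frizzled, the signal stabilises beta-catenin, which enters the nucleus and drives target genes with TCF and LEF factors. Other Wnts, of which Wnt5a and Wnt11 are the best known, act mainly through branches that do not use beta-catenin. Secreted Frizzled-related proteins (Sfrp1, Sfrp2, Sfrp4, Sfrp5 and Frzb) and Wif1 bind Wnt ligands outside the cell, and Dkk1, Dkk2 and Dkk4 bind the LRP co-receptors. Dkk3 belongs to the Dkk family by sequence but does not bind these co-receptors in the classical way. In the adult heart the pathway is low at rest and is known to be reactivated after injury, and fibroblasts are a known source of secreted Frizzled-related proteins.

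The hearts came from C57BL/6J mice, and left ventricular myocardium was profiled by sequencing of total RNA in 21 libraries, 1 per animal. There were 5 mice with sham surgery and no drug, 5 with transverse aortic constriction (TAC, a band around the aorta that overloads the left ventricle) and no drug, 5 with TAC and sildenafil, a PDE5A inhibitor, and 6 with TAC and PF-04449613, a PDE9A inhibitor. Both enzymes break down cyclic GMP, and each inhibitor was given for 4 weeks, starting 1 week after surgery. The labels name no transgene or deletion, no sham group received an inhibitor, and the sources used here give no age, sex, dose or vehicle.

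Libraries held 22.7 to 41 M counts (M, mega). Levels are given as scaled counts per M (CPM), in which 3 counts were worth 0.0781 to 0.135 CPM, so the genes near that level rest on few reads. Markers of the labelled tissue were present: the 9 cardiomyocyte markers summed to 176000 to 209000 CPM in sham and 119000 to 176000 CPM in TAC, and none was at 0. Myh7 and Nppa, which are known to rise with load on the ventricle, changed by 4.56 (SE 0.86) and 3.98 (SE 0.81) on the log2 scale in TAC against sham, with no overlap. Markers of activated fibroblasts (9 genes, Postn among them) summed to 183 to 293 CPM in sham and 907 to 5750 CPM in TAC. PDE9A inhibitor library 1 stood apart in atrial markers, 27.5 CPM in sum against 0.915 to 3.11 CPM in the other 5 libraries of its group. PDE9A inhibitor library 4 stood apart in valve and tendon markers, 318 CPM against 44.6 to 139 CPM. Values that rest on these 2 libraries are given with and without them where the call or direction changes. The first digit of the ear tags was the nearest thing to a batch in the labels. It was shared by 3 sham and 2 TAC mice (tag series 1) and by 2 sham and 2 TAC mice (tag series 6). Differences within these series are given for the genes of the family that passed the test in TAC against sham. Tag series 5 held no sham mouse, but held TAC library 3, PDE5A inhibitor libraries 1 and 2 and PDE9A inhibitor libraries 2 to 5. Of the mice given an inhibitor, only PDE9A inhibitor library 1 was in series 1. In comparisons of an inhibitor group with sham, with TAC or with the other inhibitor, group and tag series were thus partly confounded. In such bulk samples, more cells of a type and more RNA per cell cannot be told apart.

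Promoter sequence is shown for 3 genes that rose in TAC. Sfrp2 and Frzb are shown because they rose together with Sfrp1 and Dkk3, for which no promoter entry was matched. Wnt5b is shown because it was the only ligand among those that rose with a window holding one of the motifs searched. Its match was the ground for the choice, and any part of it in the rise was not tested. Each run is the 250 bases before a RefSeq start site in GRCm38.p6, read 5′ to 3′ on the gene's strand, and capitals mark a motif match. Sfrp2 lies at chr3:83766071-83766320 on the plus strand. Frzb lies at chr2:80447397-80447646 on the minus strand. In GENCODE M21 the Frzb gene spans 80411970 to 80447625, so most of this window lies inside that annotated gene. Wnt5b has several start sites, of which those at chr6:119449387-119449636 and chr6:119544348-119544597, both on the minus strand, held a match. They are called first and second below by coordinate, not by order of transcription. In GENCODE M21 the Wnt5b gene spans 119432531 to 119544347. The first window thus lies inside that gene, and the second directly before its 5′ end. The Wnt5b window at chr6:119467212-119467461 held none and is not printed.
Sfrp2: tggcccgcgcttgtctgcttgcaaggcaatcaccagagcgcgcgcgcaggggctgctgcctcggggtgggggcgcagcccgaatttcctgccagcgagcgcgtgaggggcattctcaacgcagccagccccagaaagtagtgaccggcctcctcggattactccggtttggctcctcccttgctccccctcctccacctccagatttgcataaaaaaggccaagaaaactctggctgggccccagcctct
Frzb: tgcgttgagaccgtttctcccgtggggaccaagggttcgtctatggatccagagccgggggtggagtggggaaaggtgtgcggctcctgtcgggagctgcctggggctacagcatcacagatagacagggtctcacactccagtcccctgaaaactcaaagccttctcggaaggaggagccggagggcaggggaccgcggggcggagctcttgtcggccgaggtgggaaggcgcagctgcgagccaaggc
Wnt5b, first site: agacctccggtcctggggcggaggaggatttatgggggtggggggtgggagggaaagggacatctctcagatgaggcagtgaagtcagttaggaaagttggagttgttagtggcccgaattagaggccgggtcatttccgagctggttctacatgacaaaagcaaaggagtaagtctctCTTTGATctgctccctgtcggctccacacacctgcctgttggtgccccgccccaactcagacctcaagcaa
Wnt5b, second site: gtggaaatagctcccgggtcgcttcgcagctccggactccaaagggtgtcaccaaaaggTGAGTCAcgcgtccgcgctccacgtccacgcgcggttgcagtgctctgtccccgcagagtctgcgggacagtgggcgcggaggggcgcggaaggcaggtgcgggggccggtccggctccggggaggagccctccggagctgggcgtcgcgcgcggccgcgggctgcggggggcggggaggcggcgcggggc
The motifs searched on both strands were the TCF and LEF cores CTTTGAA and CTTTGAT, the TEAD core CATTCC and the AP-1 site TGANTCA. Over 32851 promoter windows of the same length, 4.46% held CTTTGAA, 3.21% CTTTGAT, 12.6% CATTCC and 6.75% TGANTCA. No match was found in the Sfrp2 and Frzb windows, which says only that these letters are not in these 250 bases. A Wnt11 window held CTTTGAT and the Dkk1 window CTTTGAA, and Wnt11 was not called in TAC against sham and Dkk1 not tested. The Sfrp2 window was 63.6% G or C and the Frzb window 64.4%, against a median of 52.4% over all windows. The windows of the family ran from 48.4% for Wnt8b to 87.6% for Wnt3a, most of them above that median. The G and C content was thus not particular to Sfrp2 and Frzb. Promoter entries were matched for 27 of the 41 genes, and counts per gene do not tell which start site of Wnt5b was read.

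In TAC against sham, the secreted antagonists moved most. Of the 6 tested, 4 rose and none fell, by a median of 2.28 on the log2 scale over all 6. Over all 25 tested genes of the family, 9 rose and 3 fell, with a median log2 fold change of 0.29 (-0.001 over all genes tested) and 17 at an unadjusted p under 0.05. In the background, 25.2% of all genes tested were called in this comparison, 12.2% higher and 13.0% lower, and 39.6% had an unadjusted p under 0.05. For 8 genes of the family all TAC hearts were above all sham hearts, and for 1 all were below, where 16.5% of all genes had groups that did not overlap. Calls are from edgeR's quasi-likelihood test at an adjusted p under 0.05, by Benjamini and Hochberg over all genes tested, and genes said to have risen or fallen are called genes.

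Dkk3 had the largest fold change of the family. Its sham levels were 2.53, 4.2, 3.16, 4.27 and 6.12 CPM, and its TAC levels were 34.4, 18.8, 55.0, 52.0 and 26.2 CPM. The lowest TAC heart was well above the highest sham heart. Its mean rose from 4.06 ± 1.36 to 37.3 ± 15.9 CPM (SD, n = 5 each), a log2 fold change of 3.2 (SE 0.60, edgeR adjusted p = 0.00304).

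Sfrp2, a secreted Frizzled-related protein made by stromal cells, stood at 2.46, 1.86, 1.71, 3.69 and 2.63 CPM in sham. In TAC it stood at 22.9, 13.6, 37.7, 20.1 and 16.3 CPM, again with no overlap. Its mean rose from 2.47 ± 0.785 to 22.1 ± 9.43 CPM (SD, n = 5 each), a log2 fold change of 3.15 (SE 0.65, edgeR adjusted p = 0.00402).

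Frzb, also called Sfrp3, was at 4.42, 6.72, 5.81, 7.3 and 7.9 CPM in sham and at 33.0, 17.2, 52.2, 55.3 and 25.3 CPM in TAC. Every TAC heart was above every sham heart, and TAC libraries 3 and 4 were the highest, as they were for Sfrp1 and Dkk3. Its mean rose from 6.43 ± 1.36 to 36.6 ± 16.7 CPM, a log2 fold change of 2.51 (SE 0.46, edgeR adjusted p = 0.00272).

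Sfrp1 had the highest mean of the antagonists in both groups, though in TAC it overlapped others per length of exon. It stood at 13.8, 18.8, 16.7, 17.3 and 18 CPM in sham and 53.4, 32.9, 111.0, 123.0 and 32.1 CPM in TAC. The TAC hearts fell into 3 at 32.1 to 53.4 CPM and 2 above 100 CPM, and none overlapped sham. Its mean rose from 16.9 ± 1.93 to 70.7 ± 43.7 CPM, a log2 fold change of 2.06 (SE 0.42, edgeR adjusted p = 0.00402).

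Within ear tag series 1 and 6 the TAC minus sham differences of mean log2 CPM were 2.95 and 2.84 for Dkk3, 3.11 and 2.51 for Sfrp2, 2.08 and 2.29 for Frzb, and 1.36 and 1.83 for Sfrp1. These 4 calls were kept under each of the 16 alternatives run for this comparison.

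The other antagonists did not pass the test. Wif1, which binds Wnt ligands directly, stood at 1.36 ± 0.413 CPM in sham and 2.37 ± 1.92 CPM in TAC (SD, n = 5 each), with TAC hearts from 0.624 to 5.39 CPM on both sides of the sham range of 0.67 to 1.74 CPM. Sfrp5 was at 0.42 to 0.852 CPM in all 5 sham hearts. In TAC it was at 0.0343, 0.135, 0.0963, 0.0657 and 1.08 CPM, so 4 hearts were below every sham heart and 1 was above all of them. Its log2 fold change of -1.13 (SE 0.88) had an edgeR adjusted p of 0.358.

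**Figure D1:**
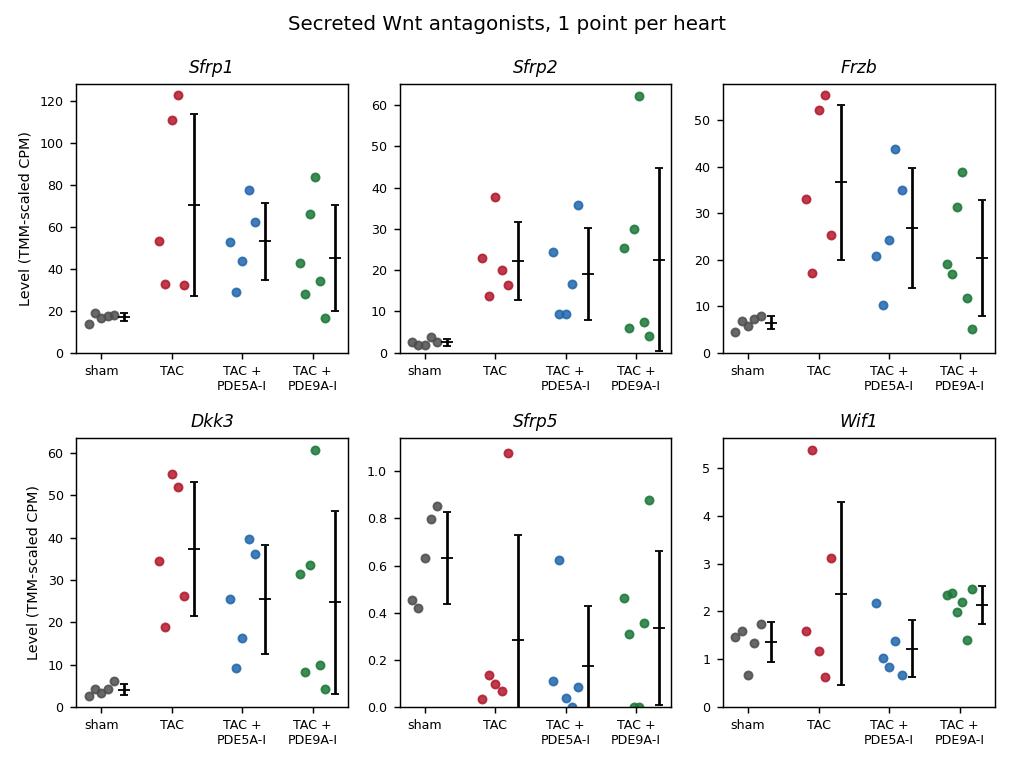
Levels of the 6 tested secreted antagonists, in TMM-scaled CPM, for the 4 groups (PDE5A-I and PDE9A-I are the inhibitor groups); each point is 1 heart, and the bar beside the points is the mean ± SD. For Sfrp1, Sfrp2, Frzb and Dkk3 all TAC hearts lie above all sham hearts, while the inhibitor groups spread over much of the TAC range.

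Markers of fibroblasts moved with these 4 antagonists. All 9 activated fibroblast markers rose in TAC, with a median log2 fold change of 3.85, and 7 of 10 general fibroblast markers rose, with a median of 0.62 and a summed level of 2560 to 3190 CPM in sham against 4180 to 6310 CPM in TAC. No marker of either list was at 0 in any group. Of the 6 valve and tendon markers, 4 were tested and all 4 rose, from 30.9 to 43.2 CPM in sum in sham to 111 to 193 CPM in TAC. Postn, a matrix protein of activated fibroblasts, changed by 3.85 on the log2 scale (SE 0.72), and Col1a1, a collagen chain, by 1.90 (SE 0.56). TAC libraries 3 and 4, the highest for Sfrp1, Frzb and Dkk3, also had the highest activated fibroblast sums, 4470 and 5750 CPM. Markers of other cells changed as well: 5 of 9 cardiomyocyte markers fell, and all 4 B cell markers rose, from 0.983 to 2.59 CPM in sum in sham to 3.04 to 5.01 CPM in TAC. The part of cell make-up in the rise of the antagonists was not tested.

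**Figure D2:**
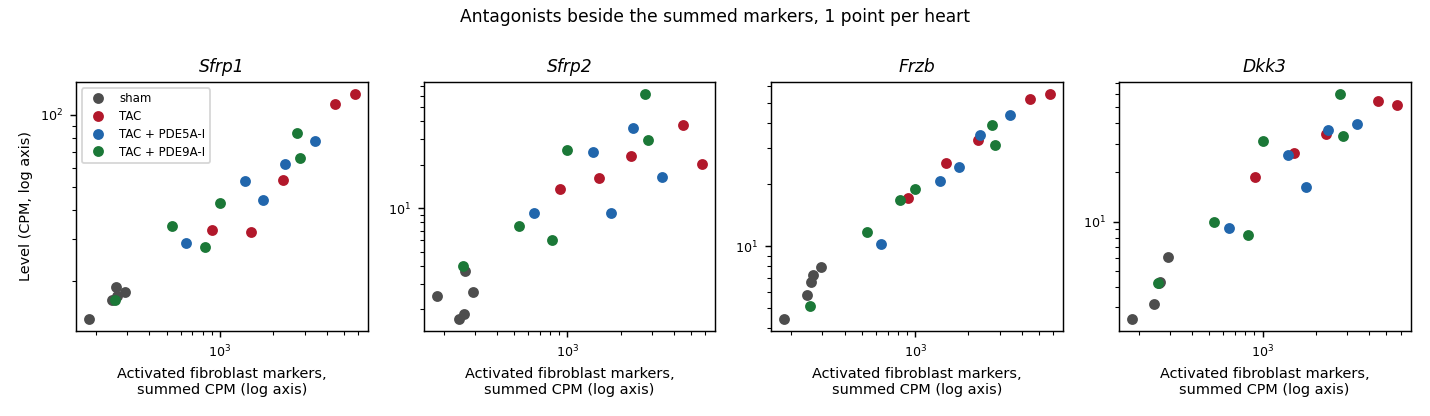
Level of Sfrp1, Sfrp2, Frzb and Dkk3 (vertical, CPM, log axis) against the summed level of the 9 activated fibroblast markers (horizontal, CPM, log axis), 1 point per heart and colour for the group. Sham hearts lie at 183 to 293 CPM of marker, beside PDE9A inhibitor library 6 at 257 CPM, and these hearts have the lowest level of each antagonist; the points share a library on both axes.

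Per length of exon, the order of the family changed with overload. In sham the co-receptor Lrp6 was highest at 11.1 ± 0.76 CPM per kilobase (SD, n = 5), above all others in every heart. It was followed by Fzd4 at 7.2 ± 0.965, Lrp5 at 6.58 ± 0.595 and Fzd6 at 5.9 ± 0.338 CPM per kilobase, whose neighbours in this order overlapped. Sfrp1 came next at 3.87 ± 0.442, apart from Fzd6 above and from Fzd1 below. Dkk3 at 1.21 ± 0.406 and Sfrp2 at 1.15 ± 0.364 CPM per kilobase stood in the lower ranks, with overlap among their neighbours.

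In TAC, Sfrp1 had the highest mean at 16.2 ± 10.0 CPM per kilobase, followed by Frzb at 11.3 ± 5.15, Dkk3 at 11.1 ± 4.72, Lrp6 at 10.6 ± 0.549 and Sfrp2 at 10.3 ± 4.38. These 5 overlapped, so their order is not fixed by these hearts. The tested and untested antagonists together summed to 9.16 ± 1.45 CPM per kilobase in sham and 50.1 ± 22.2 in TAC, while the ligands summed to 6.81 ± 0.354 and 7.51 ± 0.753. Dkk3 is counted among the antagonists by its family name, and these are sums of RNA levels, not of activity against Wnt. Receptors summed to 23.6 ± 0.298 and 26.5 ± 1.77, and co-receptors to 17.7 ± 1.19 and 17.8 ± 0.886 CPM per kilobase. The make-up of the antagonist sum changed as well: the share of Sfrp1 was 42.6% in sham and 30.3% in TAC, that of Dkk3 12.9% and 22.3%, that of Sfrp2 12.5% and 21.4%, and that of Frzb 21.5% and 22.4%.

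**Figure D3:**
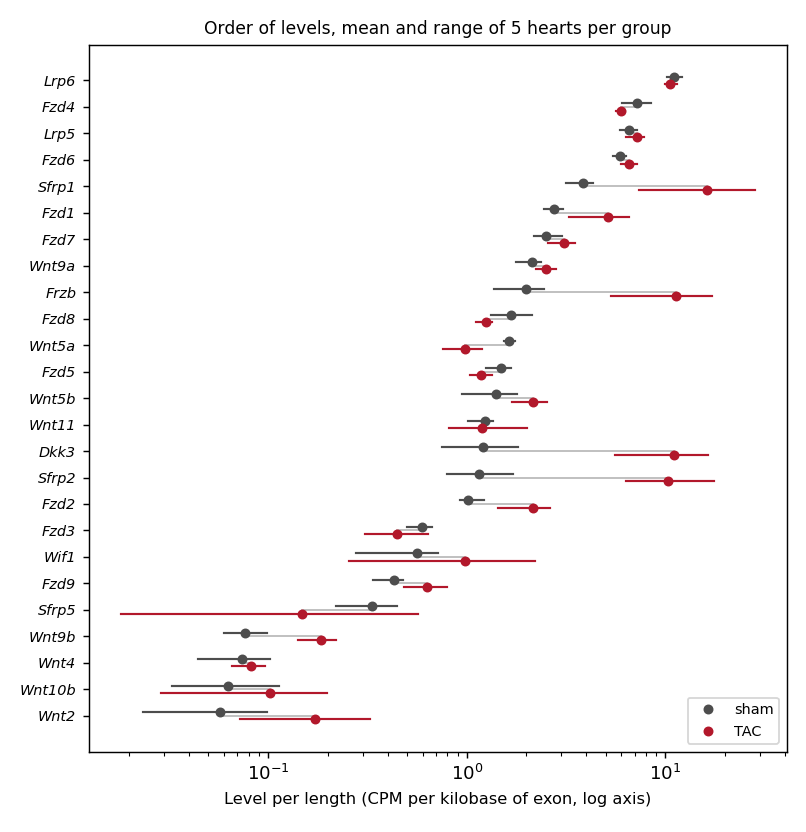
Level per kilobase of exon (log axis) of the 25 tested genes, ordered by their sham mean; the point is the mean and the bar the lowest to highest of 5 hearts, in grey for sham and red for TAC. Sfrp1, Frzb, Dkk3 and Sfrp2 move to the right in TAC and reach the level of Lrp6, which stays near 11 CPM per kilobase.

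Among the Frizzled receptors, 2 rose and 2 fell of 9 tested. Fzd1 was at 10.2, 12.9, 11.5, 10.4 and 12.6 CPM in sham and at 20.7, 13.7, 27.6, 26.7 and 19.1 CPM in TAC, with no overlap. It rose by 0.91 on the log2 scale (SE 0.21, edgeR adjusted p = 0.00752). Fzd2 was at 3.59, 3.4, 3.54, 4.46 and 3.72 CPM in sham and at 7.35, 5.25, 9.66, 8.47 and 8.84 CPM in TAC, again apart. It rose by 1.08 (SE 0.29, edgeR adjusted p = 0.0136). The differences within ear tag series 1 and 6 were 0.55 and 0.98 for Fzd1, and 0.81 and 1.08 for Fzd2.

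Fzd4, the most abundant Frizzled per length in sham and the receptor for norrin as well as for Wnts, fell slightly. Its levels were 57.1, 47.6, 52.3, 44.3 and 40.7 CPM in sham and 40.9, 38.3, 42.4, 38.0 and 42.3 CPM in TAC, with some overlap. The log2 fold change was -0.26 (SE 0.09, edgeR adjusted p = 0.0395). Fzd8 was at 7.97 to 12.8 CPM in sham and at 6.65 to 8.02 CPM in TAC, ranges that overlap narrowly, and its log2 fold change was -0.42 (SE 0.14, edgeR adjusted p = 0.0322). The Fzd4 call was lost on leaving out sham library 1, 2 or 3, or TAC library 1, 2, 3 or 4, and the Fzd8 call on leaving out sham library 2, 4 or 5, or the same TAC libraries, with adjusted p of up to 0.124 for Fzd4 and 0.0902 for Fzd8. The Fzd4 call was also lost when the model held a term for ear tag series, and its within-series differences were -0.4 and -0.08. Those of Fzd8 were -0.38 and -0.53.

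The other Frizzleds did not pass the test. Fzd9 was higher in all TAC hearts (1.11 to 1.83 CPM) than in all sham hearts (0.774 to 1.1 CPM), at an edgeR adjusted p of 0.0877. Fzd3 and Fzd5 had log2 fold changes of -0.42 and -0.33, and Fzd6 and Fzd7 of 0.16 and 0.29. The co-receptors Lrp5 (64.1 ± 5.8 and 69.9 ± 5.02 CPM) and Lrp6 (152.0 ± 10.4 and 145.0 ± 7.51 CPM) differed by 0.13 (95% interval -0.09 to 0.34) and -0.07 (-0.2 to 0.06) on the log2 scale.

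Among the 8 tested ligands, 3 rose and 1 fell. Wnt5a, a ligand of the branches that do not use beta-catenin, was the 1 gene of the family whose groups did not overlap with TAC lower. It stood at 12.8, 12.0, 13.6, 13.7 and 12.1 CPM in sham and at 8.31, 9.3, 6.77, 5.91 and 7.92 CPM in TAC, so that every TAC heart was below every sham heart. The mean went from 12.9 ± 0.799 to 7.64 ± 1.32 CPM, a log2 fold change of -0.75 (SE 0.18, edgeR adjusted p = 0.00729), and the differences within ear tag series 1 and 6 were -0.54 and -0.91. Some markers of other cells were lower beside it: 5 of 9 cardiomyocyte markers fell, with a median of -0.4. The 5 pericyte markers had a median of only -0.14, with 1 called higher and 1 lower, though their sum was lower. It was 1320 to 1530 CPM in sham and 910 to 1270 CPM in TAC. None of these markers was at 0, and their part in the Wnt5a fall was not tested.

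Its closest relative moved the other way. Wnt5b was at 4.57, 3.71, 3.13, 4.78 and 2.52 CPM in sham and at 6.05, 4.49, 6.26, 5.16 and 6.74 CPM in TAC, with 1 TAC heart inside the sham range. It rose by 0.61 on the log2 scale (SE 0.18, edgeR adjusted p = 0.0199), and this call too was kept under each alternative run for this comparison. The Wnt5b differences within ear tag series 1 and 6 were 0.46 and 0.75.

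Wnt9b and Wnt2 rose from low levels. Wnt9b was at 0.271 to 0.447 CPM in sham (7 to 12 counts) and 0.642 to 0.988 CPM in TAC (20 to 30 counts), with no overlap and a log2 fold change of 1.26 (SE 0.37, edgeR adjusted p = 0.0193). Without TAC library 4 its adjusted p was 0.0524. Wnt2 had counts of 4, 3, 6, 2 and 3 in sham and 10, 6, 23, 13 and 5 in TAC, which overlap, and a log2 fold change of 1.61 (SE 0.53, edgeR adjusted p = 0.0315). The Wnt2 call was lost without sham library 1, 2, 4 or 5 and without TAC library 3 or 4. Within ear tag series 1 and 6 the differences were 1.07 and 1.42 for Wnt9b, and 0.75 and 1.19 for Wnt2.

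The ligand with the highest level per length in sham and TAC, Wnt9a, was at 7.06 ± 0.724 and 8.38 ± 0.856 CPM and did not pass the test (log2 fold change 0.25, edgeR adjusted p = 0.0848). Wnt11 was at 5.1 ± 0.537 and 4.96 ± 2.2 CPM, with TAC libraries 3 and 4 at 6.07 and 8.34 CPM and the other 3 at 3.37 to 3.57 CPM. Wnt4 and Wnt10b were under 1 CPM in every library, with log2 fold changes of 0.16 and 0.71.

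**Figure D4:**
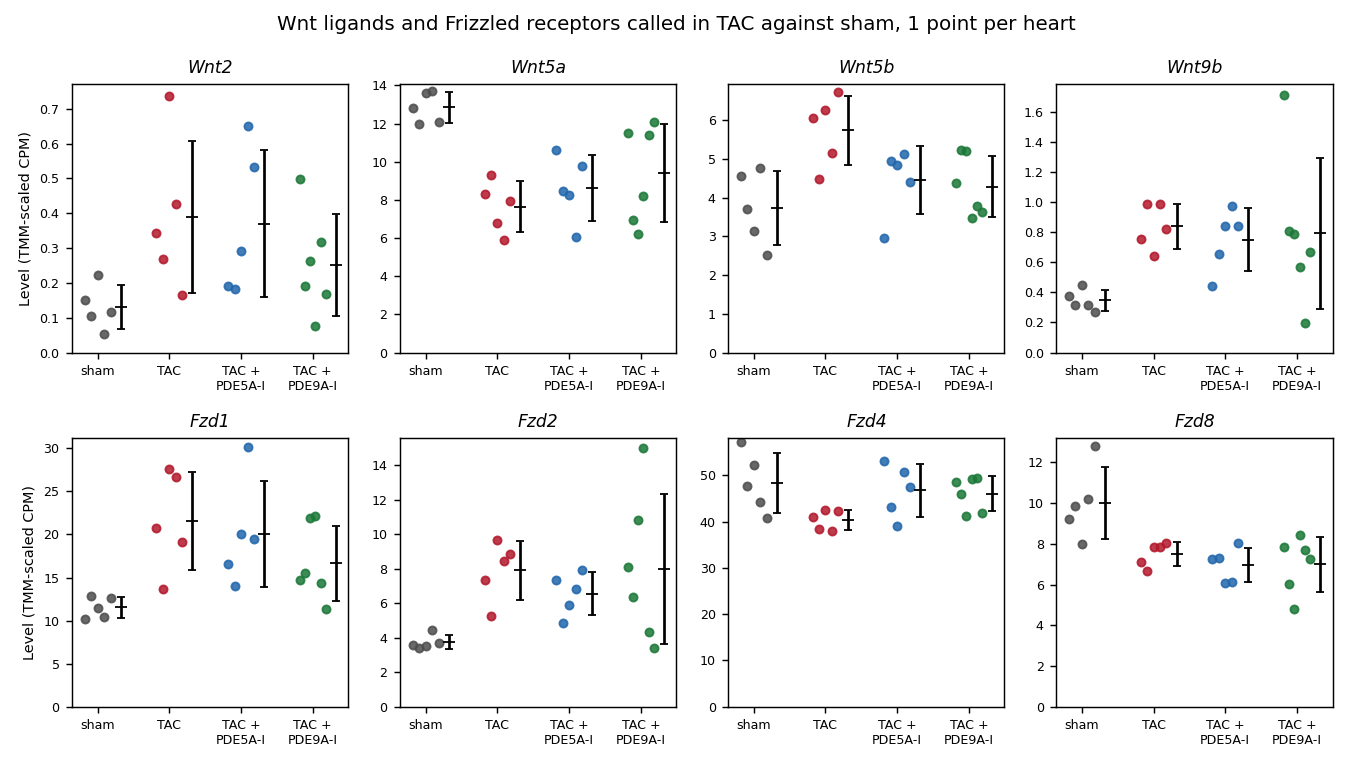
Levels of the 8 ligands and receptors called in TAC against sham, in TMM-scaled CPM, 1 point per heart with the mean ± SD beside it, for the 4 groups. Wnt5a is the panel in which all TAC hearts lie below all sham hearts; Fzd1, Fzd2 and Wnt9b show the opposite.

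The remaining 16 genes had too few counts to be tested. Dkk4, Wnt3a and Wnt8a had no count in any library, which at this depth allows up to 3 counts, or 0.0781 to 0.135 CPM. Another 8 (Dkk1, Fzd10, Wnt10a, Wnt16, Wnt3, Wnt7a, Wnt7b and Wnt8b) had at most 3 counts in every library. Sfrp4 had 2, 2, 3, 2 and 6 counts in sham and 5, 6, 14, 10 and 6 in TAC. Wnt6 had 3, 4, 10, 6 and 6 counts in sham and 0, 3, 4, 3 and 2 in TAC, while Dkk2, Wnt1 and Wnt2b stayed at 8 counts or fewer. Wnt1, Wnt3 and Wnt3a, which classically drive beta-catenin in development, had 0, 0 to 1 and 0 counts per library in sham, and 0 to 6, 0 and 0 in TAC.

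Genes that act with or behind the family were read from 5 lists. Over the 80 tested genes of the 94 listed, 11 rose and 14 fell in TAC against sham, where 12.2% of all genes rose and 13.0% fell. Axin2, a feedback inhibitor and the standard readout of beta-catenin signalling, was at 4.24 ± 0.901 CPM in sham and 4.03 ± 0.828 CPM in TAC. Its log2 fold change of -0.08 had a 95% interval of -0.48 to 0.32 (edgeR adjusted p = 0.789).

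Of 17 tested co-receptors and extracellular modulators, 4 rose and 3 fell. Cthrc1, a secreted protein of activated fibroblasts that binds Wnt and Frizzled, was at 0.035 to 0.451 CPM in sham and 1.03 to 10.2 CPM in TAC, a log2 fold change of 4.45 (edgeR adjusted p = 0.00369). Lgr6, an R-spondin receptor, fell by 0.86 on the log2 scale (adjusted p = 0.00277), from 29.4 to 35.2 CPM in sham to 12.8 to 22.0 CPM in TAC. Lrp4 fell by 0.55 (adjusted p = 0.00444), and Ror1, a receptor for Wnt5a, rose by 0.45 (adjusted p = 0.0128).

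Of 28 tested genes of the beta-catenin cascade, 1 rose and 5 fell, with a median of -0.03. The nuclear co-activators Bcl9, Bcl9l and Pygo1, which link beta-catenin to transcription, had log2 fold changes of -0.79, -0.63 and -0.28 (edgeR adjusted p of 0.00681, 0.0127 and 0.0169). Ctnnb1, which encodes beta-catenin, rose by 0.19 (adjusted p = 0.0262). The Pygo1 call was lost without TAC library 1, 3 or 4, and the Ctnnb1 call without sham library 1 or 4 or with no low-count filter.

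Of 14 tested beta-catenin targets, 3 rose and 2 fell. Twist1 rose by 1.5, Nkd2, an inhibitor of Dishevelled, by 3.01, and Wisp1 by 1.87 on the log2 scale (edgeR adjusted p of 0.00208, 0.00294 and 0.00804). Znrf3, a ligase that removes Frizzled from the surface, fell by 0.31 (adjusted p = 0.0236), a call lost on leaving out sham library 3 or 4, or TAC library 1, 3 or 4. Twist1 and Wisp1 are also read in activated fibroblasts, whose markers moved with them, and the part of these cells was not tested.

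In the branches without beta-catenin, 3 of 21 tested genes rose and 4 fell. Dact3 and Dact1, which act on Dishevelled, rose by 1.03 and 0.62 on the log2 scale (edgeR adjusted p of 0.00517 and 0.0142). Celsr2, a planar polarity cadherin, had a log2 fold change of -1.33 (adjusted p = 0.0157) and Mapk10, a stress kinase, of -0.54 (adjusted p = 0.0302). The Mapk10 call was lost with a term for ear tag series and on leaving out sham library 1, 3 or 4, or TAC library 1, 3 or 4. Of the 3 tested genes of Wnt secretion and deacylation, Trabd2b, a protease that inactivates Wnt, had a log2 fold change of -0.49 (adjusted p = 0.0251), lost with a term for ear tag series and on leaving out sham library 2 or 4, or TAC library 1, 3 or 4.

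The inhibitor groups were compared with TAC to ask whether either drug altered the family under overload. No gene of the family was called with sildenafil, where 2 of all genes tested (0.0141%) were called and 3 of the 25 had an unadjusted p under 0.05 (5.17% over all genes). These 3 were Fzd4, Wif1 and Wnt11, the last with a log2 difference of -0.48 (95% interval -0.95 to -0.02). With the PDE9A inhibitor none was called either, where 1 gene of all (0.00707%) was called and 5 of the 25 had an unadjusted p under 0.05 (14.6% over all genes). DESeq2 also called none in either comparison, with 4 of the family at an unadjusted p under 0.05 in each. Both comparisons share the 5 TAC hearts with TAC against sham, so their values are not independent of those above.

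Antagonist levels under the inhibitors overlapped those in TAC. With sildenafil, Sfrp1 was at 52.9, 28.8, 43.9, 77.7 and 62.3 CPM, a log2 difference from TAC of -0.41 (95% interval -1.25 to 0.43). Dkk3 was at 25.6, 9.09, 16.3, 39.7 and 36.2 CPM (-0.56, -1.68 to 0.56), and Frzb at 20.8, 10.3, 24.3, 43.7 and 34.9 CPM (-0.45, -1.35 to 0.44). Sfrp2 was at 24.4, 9.27, 9.3, 16.5 and 35.8 CPM (-0.22, -1.39 to 0.96). Wif1 was at 1.22 ± 0.595 CPM (-0.93, -1.82 to -0.04, edgeR adjusted p = 0.947), and Sfrp5 at 0.171 ± 0.257 CPM (-0.68, -2.73 to 1.38). All 6 tested antagonists had lower fitted means with sildenafil than in TAC alone, none past the adjusted test, where 7215 of all 14135 genes were lower. Without TAC library 3 the Sfrp2 difference was 0.06. The 9 activated fibroblast markers had a median difference of -0.51 in the same comparison, none of them called, and their part was not tested.

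With the PDE9A inhibitor the antagonists ran from near the sham level to within or above the TAC range. Sfrp1 ran from 16.6 to 83.8 CPM with a median of 38.4 (log2 difference from TAC -0.64, 95% interval -1.45 to 0.16). Frzb ran from 5.15 to 38.8 CPM with a median of 17.9 (-0.84, -1.7 to 0.02, edgeR adjusted p = 0.35). Dkk3 ran from 4.23 to 60.7 CPM with a median of 20.7 (-0.59, -1.66 to 0.48). Without PDE9A inhibitor libraries 1 and 4 these differences were -0.97 for Sfrp1, -1.17 for Frzb and -1.4 for Dkk3, none called. Dkk3 was also at -1.09 without library 4 alone. Over all alternatives the 3 differences ran from -0.97 to -0.34, from -1.17 to -0.62 and from -1.4 to -0.37, the ends nearest 0 coming without TAC library 4, with the replicate block and without PDE9A inhibitor library 6.

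Sfrp2 was at 25.4, 6.04, 29.9, 62.1, 7.52 and 3.98 CPM, so that 3 hearts were in or above the TAC range and 3 were below it. Its mean, 22.5 ± 22.2 CPM (SD, n = 6), differed from TAC by 0.02 on the log2 scale (95% interval -1.1 to 1.15), and by -0.89 without PDE9A inhibitor libraries 1 and 4, the 2 that stood apart in atrial and in valve and tendon markers. Library 4 had the highest Sfrp2 of all 21 hearts. Their part in the Sfrp2 value was not tested further.

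**Figure D5:**
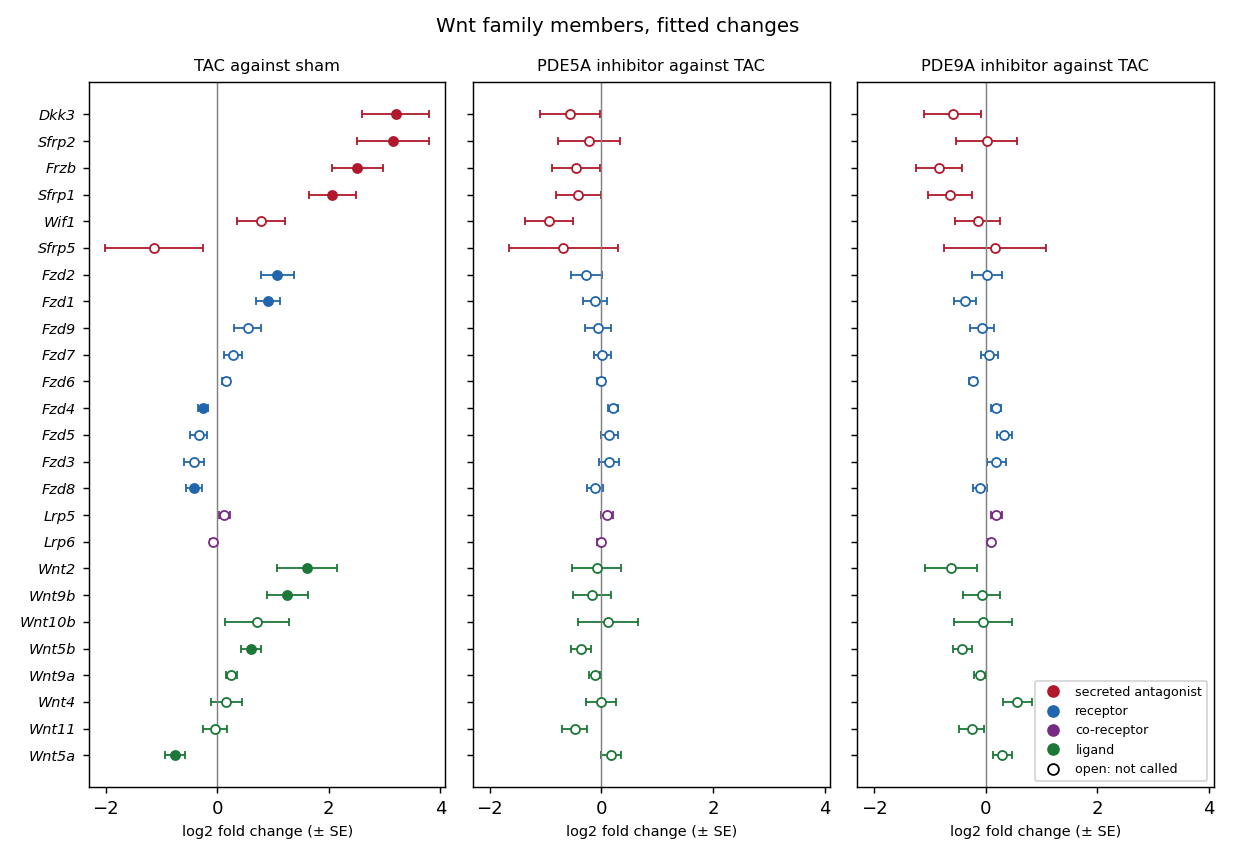
Fitted log2 fold changes (point) with their standard errors (bar) of the 25 tested genes in 3 comparisons, coloured by role; filled points are called and open points are not. In TAC against sham 12 points are filled, in the inhibitor panels none.

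Hearts differed widely within each operated group. Over the 9 genes that rose in TAC, TAC library 3 was among the 3 highest of the 16 operated hearts for 8, and TAC library 4 for 5. As these 9 genes were picked for being higher in TAC than in sham, high ranks of TAC hearts are partly built in. PDE9A inhibitor library 4 was among the 3 highest for 4 of the 9 and the highest of all for 3. PDE9A inhibitor library 6 was the lowest of the 16 for 6 of the 9 and was at or under the highest sham heart for 7 of them. Its activated fibroblast sum, 257 CPM, was within the sham range of 183 to 293 CPM, and its part in these levels was not tested. The load marker Myh7 was at 198 to 326 CPM in sham and 2780 to 8670 CPM in TAC. It was at 380 and 420 CPM in PDE5A inhibitor libraries 1 and 2, and at 592 and 432 CPM in PDE9A inhibitor libraries 5 and 6. The other inhibitor hearts had 1750 to 9100 CPM. Nppa was at 268 and 277 CPM in PDE9A inhibitor libraries 5 and 6, within the sham range of 59.8 to 299 CPM. The part of load was not tested.

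The lowest unadjusted p of the family in the comparisons of the PDE9A inhibitor with TAC and with sildenafil belonged to Fzd6, a receptor of planar polarity. It was at 28.8 to 34.5 CPM in TAC, 28.1 to 34.0 CPM with sildenafil, and 22.8, 31.3, 26.2, 26.1, 28.2 and 27.0 CPM with the PDE9A inhibitor. The log2 difference was -0.23 from TAC (95% interval -0.38 to -0.09, edgeR adjusted p = 0.254) and -0.23 from sildenafil (-0.37 to -0.08, adjusted p = 0.342), so neither passed. Wnt5b differed from TAC by -0.37 with sildenafil and -0.42 with the PDE9A inhibitor, Wnt5a by 0.18 and 0.30, and Fzd4 by 0.21 and 0.19, all without a call. Of the 80 genes of the 5 pathway lists, none was called in either inhibitor group against TAC, with 5 and 19 at an unadjusted p under 0.05 by edgeR.

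The 2 inhibitors were compared at the same duration, with doses not given. In this comparison 1 gene of all tested (0.00707%) was called, and none of the 25. By edgeR 2 of the 25 had an unadjusted p under 0.05 (10.4% over all genes), and by DESeq2 also 2, with none called. Fitted log2 differences, PDE9A inhibitor minus sildenafil, ran from -0.54 to 0.84. For Sfrp1 the difference was -0.23 (95% interval -1.04 to 0.58), for Sfrp2 0.24 (-0.89 to 1.37), for Frzb -0.39 (-1.25 to 0.47) and for Dkk3 -0.04 (-1.11 to 1.04). Differences anywhere within these intervals remain possible, so they do not show that the drugs act alike.

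Against sham, hearts with TAC and sildenafil had 6 genes higher and 2 lower of the 25, in a comparison with 14.6% of all genes called, 6.82% higher and 7.80% lower. Sfrp2 rose by 2.93 (SE 0.64), Dkk3 by 2.64 (SE 0.60), Frzb by 2.06 (SE 0.46) and Sfrp1 by 1.65 (SE 0.42) on the log2 scale, with edgeR adjusted p of 0.00978, 0.0111, 0.0106 and 0.0176. All 4 had no overlap with sham, nor did Fzd1, Fzd2 and Wnt5a, where 15.6% of all genes had none. Fzd1 and Wnt9b also rose (0.80 and 1.11), and Fzd8 and Wnt5a fell (-0.52 and -0.58). When the model held a term for ear tag series, 1 of the 6 rises (Wnt9b) and none of the falls were called. The Wnt9b call, at an adjusted p of 0.0487, was itself lost without any 1 of the 5 sham libraries, without PDE5A inhibitor library 2, 3, 4 or 5, with no low-count filter and with the replicate block. Without PDE5A inhibitor library 4, the rises of Sfrp2, Dkk3 and Frzb were called and no fall was.

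Hearts with TAC and the PDE9A inhibitor had 4 genes higher and 1 lower against sham, where 2.17% of all genes were called higher and 1.65% lower. Sfrp2 rose by 3.17 (SE 0.63), Dkk3 by 2.61 (SE 0.58), Fzd2 by 1.10 (SE 0.28) and Frzb by 1.67 (SE 0.44), with edgeR adjusted p of 0.0234, 0.0273, 0.0385 and 0.0451, and Fzd8 fell by 0.52 (adjusted p = 0.0363). Sfrp1, at 1.42 (SE 0.41), had an adjusted p of 0.0519. Of the 25, Sfrp2 was the 1 gene with no overlap with sham, where 3.47% of all genes had none and 3.82% were called. None of the 5 calls was kept without PDE9A inhibitor libraries 1 and 4, with a term for ear tag series, without PDE9A inhibitor library 3 or 4, or without sham library 1, 2 or 3.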

How the data were processed

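The authors deposited 1 table of RSEM expected counts per gene symbol, 24054 rows by 21 libraries, not scaled between libraries (from the values, 19% of which had decimals). Per the labels' protocols, RNA from flash-frozen left ventricle was made into stranded total RNA libraries from 500 ng. The submitters' processing notes list RSEM 1.3.0, HISAT2 2.0.5, CASAVA 1.8.4, DESeq2 1.18.1 and mm10, without roles, and the sources used here do not say whether counting used strand. A gene of the opposite strand overlaps exons of Fzd5, Fzd6, Sfrp2, Wnt11 and Wnt5a, so reads of such partners cannot be told apart where strand was not used. In the table, 27 rows carry a date in place of a symbol and were not described.

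Expected counts were rounded, filtered with filterByExpr by group (14135 genes left) and scaled by TMM. In R 4.3.3, edgeR 4.0.16 fitted group means to the 21 libraries in 1 quasi-likelihood model (robust glmQLFit, then glmQLFTest), a procedure tested on simulated data. Benjamini-Hochberg adjustment covered all genes tested, with calls at 0.05. Levels are TMM-scaled CPM, mean ± SD over hearts, and levels per kilobase use the union of exons in GENCODE M21 (GRCm38). Fold changes are log2 with the standard error from the F statistic and 95% intervals from the t distribution with the degrees of freedom of that test. Sequences are from the RefSeq table of GRCm38.p6. The floor of 3 counts covers counting error only.

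Each library was a separate animal by its ear tag. Replicate numbers were not taken as pairs. Of 30 pairs of same-numbered libraries in different groups, 8 had deviations correlated above 0.1 (range -0.225 to 0.564), each of them between operated groups. Libraries with different numbers were not correlated for comparison, so these values cannot decide whether the numbers pair. The members, gene lists, tests and alternatives were chosen with earlier results of these data known. All 41 genes are accounted for, and from each list up to 4 called genes with the lowest adjusted p per comparison were named, with Axin2 always. The alternatives were RLE size factors, DESeq2 1.42.0, no low-count filter, only the 2 groups compared, a term for ear tag series, the replicate number as a block, leaving out each library, leaving out PDE9A inhibitor libraries 1 and 4, and differences within ear tag series.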

Additional observations from a re-analysis of the deposited data

Results flagged for a closer look

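In 4 of 100 gene and group combinations examined, 1 heart stood apart from the rest of its group, where chance gives about 1 in 20. Fzd5 was at 15.9 CPM in PDE9A inhibitor library 1, against 7.91 to 9.81 CPM in the other 5. Sfrp5 was at 1.08 CPM in TAC library 5, against 0.0343 to 0.135 CPM in the other 4. Wnt4 was at 0.474 CPM in PDE5A inhibitor library 3, against 0.298 to 0.33 CPM. Wnt5b was at 2.97 CPM in PDE5A inhibitor library 1, below the 4.41 to 5.12 CPM of the others.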

How the results depend on the processing

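In TAC against sham, the count of called genes of the family was 9 higher and 3 lower, 9 and 3 with RLE size factors, 10 and 3 with DESeq2 or with no low-count filter, 9 and 4 with only the 2 groups, and 9 and 2 with a term for ear tag series. Leaving out 1 library gave 7 to 10 higher and 1 to 4 lower, with 1 lower without sham library 2 or TAC library 1, 3 or 4. PDE5A inhibitor against sham gave 1 higher and 0 lower with a term for ear tag series, and 3 to 7 higher and 0 to 3 lower without 1 library, the fewest without PDE5A inhibitor library 4. PDE9A inhibitor against sham gave 7 higher with DESeq2, 2 with no low-count filter, 0 higher and 0 lower with a term for ear tag series, with only the 2 groups and without PDE9A inhibitor libraries 1 and 4, and 0 to 7 higher and 0 to 2 lower without 1 library. The cause of these moves was not tested. With the replicate block, a pairing that was not established, TAC against sham gave 10 higher and 4 lower. The same block gave 6 and 2 for PDE5A inhibitor against sham, 7 and 2 for PDE9A inhibitor against sham, and 0 for the inhibitors against TAC. For Sfrp2 the uncalled difference from TAC turned sign: with sildenafil it was 0.06 without TAC library 3 and -0.58 to 0.06 over the fits without 1 library, and with the PDE9A inhibitor it was -0.2 with a term for ear tag series, -0.89 without PDE9A inhibitor libraries 1 and 4, and -0.59 to 0.30 without 1 library, below 0 without TAC library 2, 4 or 5 or PDE9A inhibitor library 1, 3 or 4. Genes under about 0.135 CPM are below what 3 counts can show.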
